A study of Homo sapiens with 6 samples.

Results

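The miR-99/100 and miR-125 families were followed in K562 cells, a human erythroleukemia line that can be driven towards the erythroid or the megakaryocytic lineage. The members are the 10 mature microRNAs of these names among the 28846 small RNAs listed in the count tables, of which 2596 are microRNA entries. They were chosen by name and not by their values, although earlier results of these data were known. The control samples carried the lentiviral vector SIEW with GFP alone, and the RUNX1 samples carried SIEW RUNX1 with human RUNX1 and GFP, so that all samples were transduced and expressed GFP. Each group had 3 replicates from independent transductions, and RNA was taken after 10 days of culture. Small RNA libraries were made from 1000 ng of total RNA and sequenced, and the reads were counted per small RNA. The question was which microRNAs differ upon over-expression of RUNX1, a transcription factor that acts at the branching of the megakaryocytic and erythroid lineages. K562 is 1 cell line and RUNX1 was expressed from a vector. RUNX1 mRNA is not measured in small RNA libraries, so the targeted gene could not be used to check the labels.

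MicroRNAs are cut from hairpin precursors and guide Argonaute proteins to messenger RNAs, which they recognise mainly through the seed, the bases 2 to 8 of the mature strand. Each hairpin can give a 5p and a 3p strand, and usually 1 strand is kept while the other, the passenger strand, is degraded. The miR-99/100 and miR-125 hairpins stand next to let-7 hairpins in loci that are conserved across animals. The miR-99/100 family is known for targeting mTOR and other genes of growth signalling, miR-125b is known as a microRNA that can drive leukemia when over-expressed, and let-7 is known as a repressor of growth genes. In blood, both families are known from stem cells and from megakaryocytic leukemia.

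The mature sequences show which members can be told apart in sequencing and which share a seed. They are given 5′ to 3′ from RefSeq (GRCh38.p14), and the capitals mark the seed.
hsa-miR-99a-5p: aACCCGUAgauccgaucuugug
hsa-miR-100-5p: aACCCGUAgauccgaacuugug
hsa-miR-99b-5p: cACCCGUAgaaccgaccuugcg
hsa-miR-99a-3p: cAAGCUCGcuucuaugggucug
hsa-miR-99b-3p: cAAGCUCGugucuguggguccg
hsa-miR-125a-5p: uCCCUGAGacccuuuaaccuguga
hsa-miR-125b-5p: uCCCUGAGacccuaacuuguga
hsa-miR-125a-3p: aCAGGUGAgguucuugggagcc
hsa-miR-125b-1-3p: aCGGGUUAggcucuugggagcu
hsa-miR-125b-2-3p: uCACAAGUcaggcucuugggac

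All 10 members were found in RefSeq, with lengths of 22 to 24 bases, and they carry 6 seeds. The seed ACCCGUA is shared by miR-99a-5p, miR-99b-5p and miR-100-5p, CCCUGAG by miR-125a-5p and miR-125b-5p, and AAGCUCG by miR-99a-3p and miR-99b-3p. The only other entry with a seed of the 5p members is miR-4319, which shares CCCUGAG and had 0 counts in all 6 libraries. Counted from the 5′ end, miR-99a-5p and miR-100-5p differ by the single substitution U16A, so their reads are hard to tell apart and the split of counts between them is uncertain. miR-99a-5p and miR-99b-5p differ at 4 positions (A1C, U11A, U16C and U21C), and from miR-99b-5p to miR-100-5p there are also 4 substitutions (C1A, A11U, C16A and C21U). miR-125a-5p and miR-125b-5p share their first 13 bases.

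The hairpins lie in 3 loci, all in introns of a host gene on the same strand (GENCODE 29, GRCh38). MIR99A (chr21:16539089-16539169, plus strand), MIRLET7C and MIR125B2 (chr21:16590237-16590325) lie in the long non-coding gene MIR99AHG, with MIR125B2 starting 50325 bases after MIRLET7C. MIR100 (chr11:122152229-122152308, minus strand), MIRLET7A2 and MIR125B1 (chr11:122099757-122099844) lie in MIR100HG, with 46677 bases between MIRLET7A2 and MIR125B1. MIR99B (chr19:51692612-51692681, plus strand), MIRLET7E (chr19:51692786-51692864) and MIR125A (chr19:51693254-51693339) lie within 728 bases of each other, in an intron of 1 of the 14 annotated transcripts of the protein-coding gene SPACA6. The chromosome 19 locus is therefore compact, and the other loci spread the same order of hairpins over 51237 bases on chromosome 21 and 52552 bases on chromosome 11. The deposited counts were made on hg19, and the positions given here serve only to place the hairpins.

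The total counts ranged from 1618248 to 6193319 in control and from 7918551 to 15245007 in RUNX1 libraries, and microRNAs took 81.4% to 82.1% and 89.5% to 91.9% of them. The chi-square per degree of freedom between 2 libraries was 11.2 to 25.9 within control and 67.4 to 545 within RUNX1, where sampling noise alone gives about 1, and RUNX1 replicate 3 stood apart from the other two, with 545 and 372. This measure grows with depth, and the RUNX1 libraries held more counts, so its values are not directly comparable between the groups. The erythroid marker microRNAs miR-451a, miR-144 and miR-486-5p were present in all libraries, with 4427 to 5062 CPM summed over the 4 entries in control and 2332 to 3696 CPM in RUNX1 libraries, where 3 entries were down-regulated and 1, miR-144-3p, was up-regulated. Of the markers of other cell types, all tested entries of 3 lists were up-regulated, 3 of 4 listed for myeloid and lymphoid, 3 of 3 for epithelial and 2 of 5 for mesenchymal cells. By the same rule, given below, 33.4% of all microRNA entries tested were up-regulated and 22.6% down-regulated. The summed level of 4 myeloid and lymphoid markers was 13822 to 15530 CPM in control and 37114 to 54019 CPM in RUNX1 libraries, that of 3 epithelial markers 36.8 to 45.0 CPM and 148 to 165 CPM, and that of 5 mesenchymal markers 70.8 to 75.3 CPM and 1951 to 2157 CPM, of which miR-143-3p made up 17.2 to 20.1 CPM and 1865 to 2050 CPM and miR-199a-5p was at 0 in all libraries. The liver marker miR-122-5p had 0.124 to 1.05 CPM and 0.320 to 1.13 CPM, and the 2 neuronal markers had at most 0.263 CPM together. The part of these markers in the results on the members was not tested, and in bulk RNA fewer cells of a type and less RNA per cell cannot be told apart. The letter in the library names differs between the 2 conditions, and should it mark a preparation, this cannot be told apart from the condition.

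Levels are given as CPM, the counts relative to the library size scaled by TMM, a method that takes most small RNAs to be stable. A small RNA was called altered when edgeR's quasi-likelihood test gave a P-value under 0.05 and the log2 fold change was 0.5 or more in either direction, which are the thresholds of the study. P-values adjusted by Benjamini-Hochberg over all 947 small RNAs tested are given beside them. By this rule, 57.6% of the small RNAs tested were altered, 29.6% down-regulated and 28% up-regulated. Among the 598 microRNA entries tested, 22.6% were down-regulated and 33.4% up-regulated. With so many calls the scaling matters, and without the composition factors 81.3% of all calls were down-regulated in place of 51.4%. With factors estimated on microRNAs alone, 61.8% were. The median log2 fold change of all small RNAs moved by -0.70 and -0.19 under these scalings.

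All 10 members had at least 1 count, and 7 passed the filter on low counts. Of the 7 tested, 2 were down-regulated, miR-99a-5p and miR-100-5p, and 0 were up-regulated. With a P-value under 0.05 and no fold limit, 3 were lower and 1 was higher by edgeR, 57.1% of the members tested. Among all 947 small RNAs, 308 were lower and 288 higher by this limit in edgeR, 62.9% together. By DESeq2, 2 members were lower and 1 was higher with no fold limit, and the share over all small RNAs was not determined. By the full rule DESeq2 also called 2 members lower and 0 higher, beside 26% and 28.5% of all small RNAs. The median log2 fold change of the 7 tested members was -0.42, beside -0.064 over all small RNAs and 0.11 over the microRNAs tested. The groups did not overlap in 4 of the 7 members, and in 614 of the 947 small RNAs. A count of 2 in 7 is near the background of 29.6% down-regulated, so it is no result about the members as a group, and they are described singly.

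**Figure D1:**
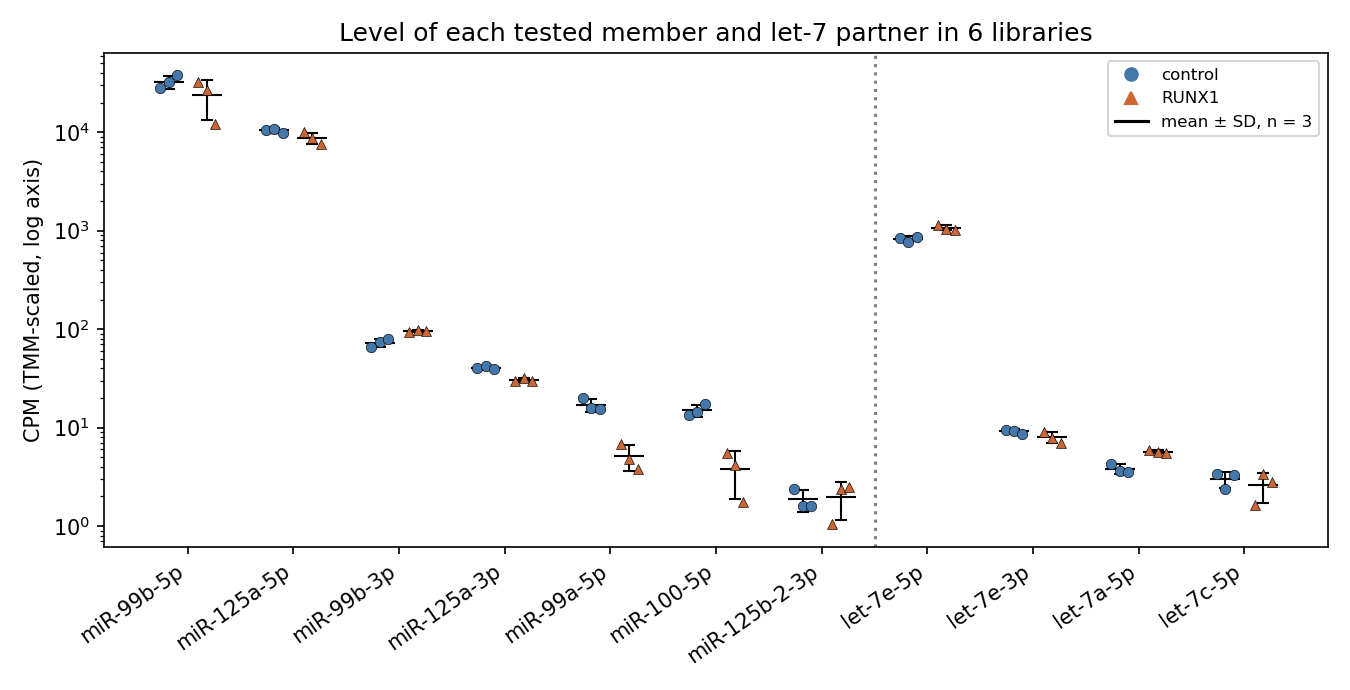
TMM-scaled CPM on a log axis of the 7 tested members, left of the dotted line, and of 4 let-7 entries of the same loci, with 1 point per library and the mean ± SD of 3 libraries. miR-99a-5p and miR-100-5p were lower in all 3 RUNX1 libraries than in any control library, and miR-99b-5p had 12200 CPM in RUNX1 replicate 3 and 26843 and 32087 CPM in the other two.

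hsa-miR-99a-5p, the 5p strand of the chromosome 21 locus, had 42, 128 and 117 counts in control replicates 1 to 3 and 78, 30 and 26 counts in RUNX1 replicates 1 to 3. Scaled for depth, these were 20.1, 15.9 and 15.4 CPM in control and 6.76, 4.80 and 3.79 CPM in RUNX1 libraries. Every RUNX1 library was lower than every control library. The mean level fell from 17.1 ± 2.57 to 5.12 ± 1.51 CPM (SD, n = 3 each), and the fitted level was 3.20-fold lower, at a log2 fold change of -1.68 (standard error 0.248, edgeR adjusted p = 0.000381). Its rank by mean level was 263 of 1364 microRNAs detected in control and 375 of 1441 in RUNX1 libraries.

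hsa-miR-100-5p, from the chromosome 11 locus, had 28, 115 and 131 counts in control and 64, 26 and 12 counts in RUNX1 libraries. Its levels were 13.4, 14.3 and 17.2 CPM in control and 5.55, 4.16 and 1.75 CPM in RUNX1 libraries. The groups did not overlap, and RUNX1 replicate 3 was the lowest library. The mean level fell from 14.96 ± 2.02 to 3.82 ± 1.92 CPM (SD, n = 3 each), and the fitted level was 3.83-fold lower, at a log2 fold change of -1.94 (standard error 0.341, edgeR adjusted p = 0.00107). It ranked 271 in control and 423 in RUNX1 libraries.

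Since 1 base separates these microRNAs, their counts were also summed before the fit, an alternative chosen after the data had been seen. The sum was 70, 243 and 248 counts in control and 142, 56 and 38 counts in RUNX1 libraries. It was lower in RUNX1 libraries at a log2 fold change of -1.81 (standard error 0.259, edgeR adjusted p = 0.000318). The fall therefore did not depend on how reads were split between the names. Without RUNX1 replicate 3 and control replicate 1 together, both microRNAs were still called.

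hsa-miR-99b-5p shares their seed and was the most abundant member. It had 58470, 261282 and 286827 counts in control and 370044, 167850 and 83619 counts in RUNX1 libraries. Scaled, these were 27951, 32411 and 37755 CPM in control and 32087, 26843 and 12200 CPM in RUNX1 libraries. With this TMM scaling the groups overlapped, with RUNX1 replicate 1 within the control range and RUNX1 replicate 3 far below all other libraries. The mean level was 32706 ± 4909 CPM in control and 23710 ± 10307 CPM in RUNX1 libraries (SD, n = 3 each), at a log2 fold change of -0.46 (standard error 0.301, edgeR adjusted p = 0.212), which did not pass the test. The coefficient of variation was 15.01% in control and 43.5% in RUNX1 libraries. Without RUNX1 replicate 3, the log2 fold change was -0.062, so most of the difference in means came from this library. miR-99b-5p ranked 8 among microRNAs in control and 10 in RUNX1 libraries.

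hsa-miR-125a-5p, the most abundant miR-125 member and a neighbour of miR-99b in the genome, had 10589, 10887 and 9782 CPM in control and 9960, 8651 and 7557 CPM in RUNX1 libraries. With TMM scaling the groups overlapped by 1 library, RUNX1 replicate 1. As a share of all microRNA counts they did not, with 1.67%, 1.75% and 1.46% in control and 0.820%, 0.697% and 0.731% in RUNX1 libraries. The log2 fold change was -0.26 (standard error 0.133, edgeR adjusted p = 0.125), and without RUNX1 replicate 3 it was -0.075. The coefficient of variation was 5.49% in control and 13.8% in RUNX1 libraries. It ranked 17 in control and 21 in RUNX1 libraries, so both abundant 5p strands of the chromosome 19 locus were among the most abundant microRNAs of these cells in both conditions.

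**Figure D2:**
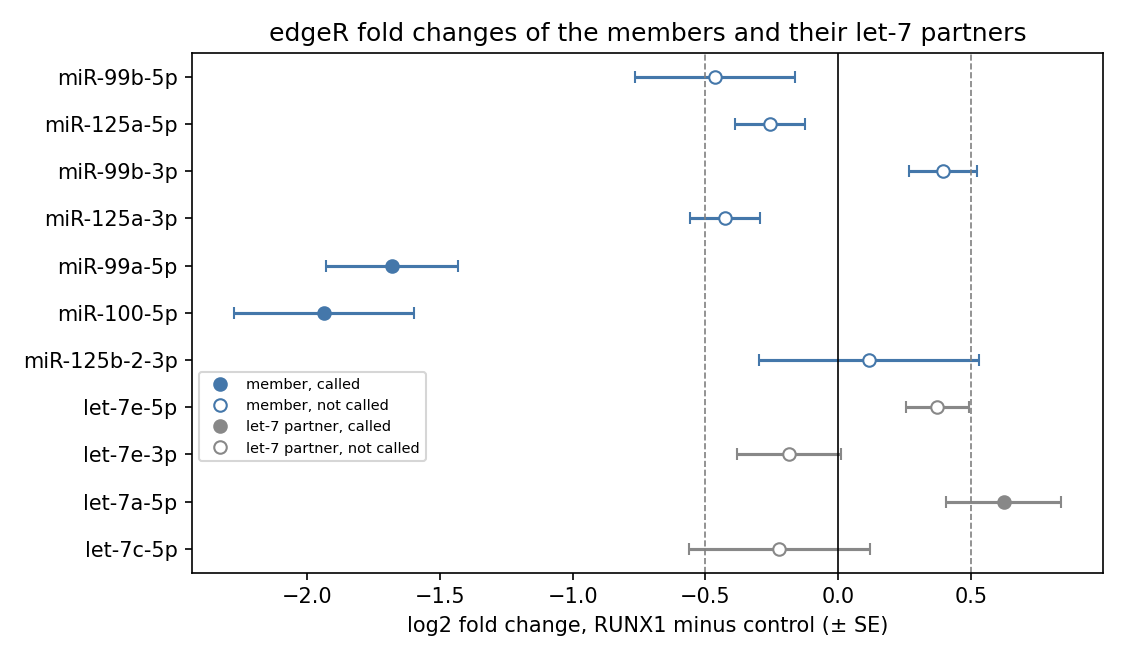
Log2 fold change (RUNX1 minus control) with its standard error from edgeR for the 7 tested members and 4 let-7 entries, with filled points for those called altered and dashed lines at the fold limits. Only miR-99a-5p (-1.68) and miR-100-5p (-1.94) lie beyond the lower limit, and let-7a-5p (0.62) lies beyond the upper one.

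The 3p strands were far less abundant than the 5p strands of the same hairpins. miR-99b-3p had 138, 590 and 599 counts in control and 1083, 616 and 654 counts in RUNX1 libraries. Its levels of 66.0, 73.2 and 78.8 CPM in control and 93.9, 98.5 and 95.4 CPM in RUNX1 libraries did not overlap. The log2 fold change of 0.39 (standard error 0.128, edgeR adjusted p = 0.0247) was under the fold limit, and it turned to -0.30 without composition factors, where the median of all small RNAs moved by -0.70. This strand was therefore on the higher side of control relative to most small RNAs. Its 5p strand had a lower mean, which with TMM scaling came mostly from RUNX1 replicate 3 (log2 fold change -0.062 without it). Neither strand passed both thresholds with this scaling.

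hsa-miR-125a-3p had 84, 344 and 298 counts in control and 340, 199 and 204 counts in RUNX1 libraries. Its levels were 40.2, 42.7 and 39.2 CPM in control and 29.5, 31.8 and 29.8 CPM in RUNX1 libraries, with every RUNX1 library below every control library. The log2 fold change of -0.42 (standard error 0.132, edgeR adjusted p = 0.0207) was under the fold limit. Here the lower level in RUNX1 replicate 3 that marked miR-99b-5p was not seen, since this library lay between the other two.

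hsa-miR-125b-2-3p, the 3p strand of the chromosome 21 miR-125b hairpin, had 5, 13 and 12 counts in control and 12, 15 and 17 counts in RUNX1 libraries. The levels of 2.39, 1.61 and 1.58 CPM in control and 1.04, 2.40 and 2.48 CPM in RUNX1 libraries overlapped. The log2 fold change was 0.12 with a standard error of 0.416 (edgeR adjusted p = 0.831), and its sign turned under other scalings, so that no difference was detectable at this depth. Its difference from miR-99a-5p of the same locus was not tested.

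The other 3 members were too low to be tested. miR-125b-5p had 1 count in each control library and 0 in each RUNX1 library. miR-125b-1-3p had 1 count in RUNX1 replicates 1 and 2 each and 0 in the other libraries. miR-99a-3p had 1 count in control replicate 2, 7 in RUNX1 replicate 1 and 2 in RUNX1 replicate 3. A floor of 3 counts stands for 0.372 to 1.43 CPM in control and 0.260 to 0.480 CPM in RUNX1 libraries, and only miR-99a-3p in RUNX1 replicate 1 was above it. No fold change is given for these.

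The mature miR-125b-5p is made from 2 loci, on chromosomes 11 and 21, and how the authors counted reads that match several loci is not given in the sources used here. Of the 2126 microRNA entries with 1 RefSeq locus, 505 were tested, and of the 136 entries with 2 or more, 15 were. Entries with several loci were thus tested in 11% of cases and those with 1 locus in 23.8%. Some had many counts, such as miR-92a-3p with 982584. The 3 counts of miR-125b-5p stand beside 74 counts of miR-125b-2-3p, which has 1 locus, and whether reads of miR-125b-5p were lost in counting was not tested. The level of miR-125b-5p in these cells is therefore uncertain.

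The let-7 entries of the same loci were read as partners of the members. Of the 7 entries, 5 had a count and 4 were tested, of which 1 was up-regulated and 0 were down-regulated, with a median log2 fold change of 0.095. A count of 1 in 4 is near the background of 28% of all small RNAs and 33.4% of microRNAs up-regulated. let-7e-5p, between miR-99b and miR-125a on chromosome 19, had 847, 771 and 870 CPM in control and 1151, 1048 and 1025 CPM in RUNX1 libraries. The groups did not overlap, but the log2 fold change of 0.37 (standard error 0.120, edgeR adjusted p = 0.0238) was under the fold limit, and it turned to -0.33 without composition factors. let-7a-5p had only 9, 29 and 27 counts in control and 69, 35 and 38 counts in RUNX1 libraries, and was called at a log2 fold change of 0.62 (standard error 0.217, edgeR adjusted p = 0.0331). It comes from 3 loci, so that its counts cannot be assigned to the miR-100 locus, and the call was lost with the replicate number as a block (log2 fold change 0.59, adjusted p = 0.0809), without control replicate 2 (0.58), without control replicate 3 (0.59) and with TMM on microRNAs (0.43). Its sign turned to -0.078 without composition factors. The let-7a-5p sequence differs from let-7e-5p and from let-7c-5p by a single base each. In all libraries together let-7e-5p had 41456 counts and let-7a-5p 207. Whether misread let-7e-5p reads are among the counts of let-7a-5p was not tested, nor whether its reads matching several loci were lost in counting. let-7e-3p (log2 fold change -0.18, standard error 0.197) and let-7c-5p (log2 fold change -0.22, standard error 0.341) were not called. let-7a-3p had 3 counts in all, and let-7a-2-3p and let-7c-3p were at 0 in all libraries.

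A ratio of 2 microRNAs within a library needs no scaling of the libraries. For 10 pairs, log2 ratios were compared between the groups by a two-sided exact permutation test, which cannot go below p = 0.1 with 3 samples against 3. The groups did not overlap in 7 pairs, each with an exact permutation p = 0.1 (0.143 adjusted over the 10 pairs), so none could pass a threshold of 0.05. The pairs share entries and are not independent, and groups without overlap were common among single small RNAs (614 of 947). The share over other pairs of small RNAs was not determined, so the count of 7 is no result about these pairs.

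The ratio of miR-100-5p to miR-99b-5p had the smallest standard error of the 10 pairs. Of the summed counts of the 3 miR-99/100 5p strands, miR-100-5p took 0.0478%, 0.0440% and 0.0456% in control and 0.0173%, 0.0155% and 0.0143% in RUNX1 libraries. Wilson 95% intervals, which cover counting error only, ran from 0.0331% to 0.0691% over the control libraries and from 0.00821% to 0.0251% over the RUNX1 libraries. The log2 ratio to miR-99b-5p differed by -1.53 ± 0.0768 (difference ± standard error, n = 3 each), 2.89-fold lower in RUNX1 libraries. In each group the shares lay closer together than the counting interval of any single library is wide. The standard error, taken from this spread, therefore understates the error, and miR-100-5p had only 12 counts in RUNX1 replicate 3. RUNX1 replicate 3, where miR-99b-5p itself was low, did not stand out in this ratio, since miR-100-5p was low there in proportion.

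miR-99a-5p took 0.0717%, 0.0489% and 0.0408% of the same sum in control and 0.0211%, 0.0179% and 0.0311% in RUNX1 libraries. Its log2 ratio to miR-99b-5p differed by -1.19 ± 0.342, also without overlap. The ratio of miR-99a-5p to miR-100-5p was 1.49, 1.11 and 0.894 in control and 1.22, 1.15 and 2.12 in RUNX1 libraries, and the difference of 0.33 ± 0.353 on the log2 scale lay within the spread (exact permutation p = 0.4, n = 3 each). It was 0.054 without RUNX1 replicate 3, 0.16 without control replicate 3 and 0.53 without control replicate 1. miR-99b-5p made up the rest of the seed family, 99.9% or more of its counts in 5 of the 6 libraries and 99.88% in control replicate 1. In that library, where their share was the highest, miR-99a-5p and miR-100-5p together had 70 of the 58540 reads that carry this seed. Summing the 3 strands gave a log2 fold change of -0.46, which was not called.

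Within the chromosome 19 locus, the 5 ratios also share entries. The groups did not overlap in 3 of them, all with the smallest p the test allows, and overlapped in the rest. There were 422, 442 and 478 reads of miR-99b-5p per read of miR-99b-3p in control and 342, 272 and 128 in RUNX1 libraries, a log2 difference of -0.97 ± 0.432. miR-99b-5p stood at 33.0, 42.0 and 43.4 times let-7e-5p in control and 27.9, 25.6 and 11.9 times in RUNX1 libraries, a log2 difference of -0.94 ± 0.410. Both ratios were lower in all RUNX1 libraries and lowest in RUNX1 replicate 3, and without that library the differences were -0.55 and -0.55.

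miR-125a-5p stood at 12.5, 14.1 and 11.2 times let-7e-5p in control and 8.65, 8.25 and 7.37 times in RUNX1 libraries. This log2 difference of -0.64 ± 0.117 rested less on 1 library and was -0.57 without RUNX1 replicate 3. The reads of miR-125a-5p per read of miR-125a-3p, 262, 255 and 249 in control and 337, 271 and 253 in RUNX1 libraries, overlapped (difference 0.16 ± 0.127, exact permutation p = 0.3, n = 3 each), and the difference was 0.038 without RUNX1 replicate 1 and 0.24 without RUNX1 replicate 3. The ratio of miR-99b-5p to miR-125a-5p also overlapped, with 2.64, 2.98 and 3.86 in control and 3.22, 3.10 and 1.61 in RUNX1 libraries (difference -0.30 ± 0.362, exact permutation p = 0.6, n = 3 each), and its difference was 0.020 without RUNX1 replicate 3. Both abundant 5p strands thus lay lower relative to let-7e-5p of the same locus, and no difference between them was detectable.

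**Figure D3:**
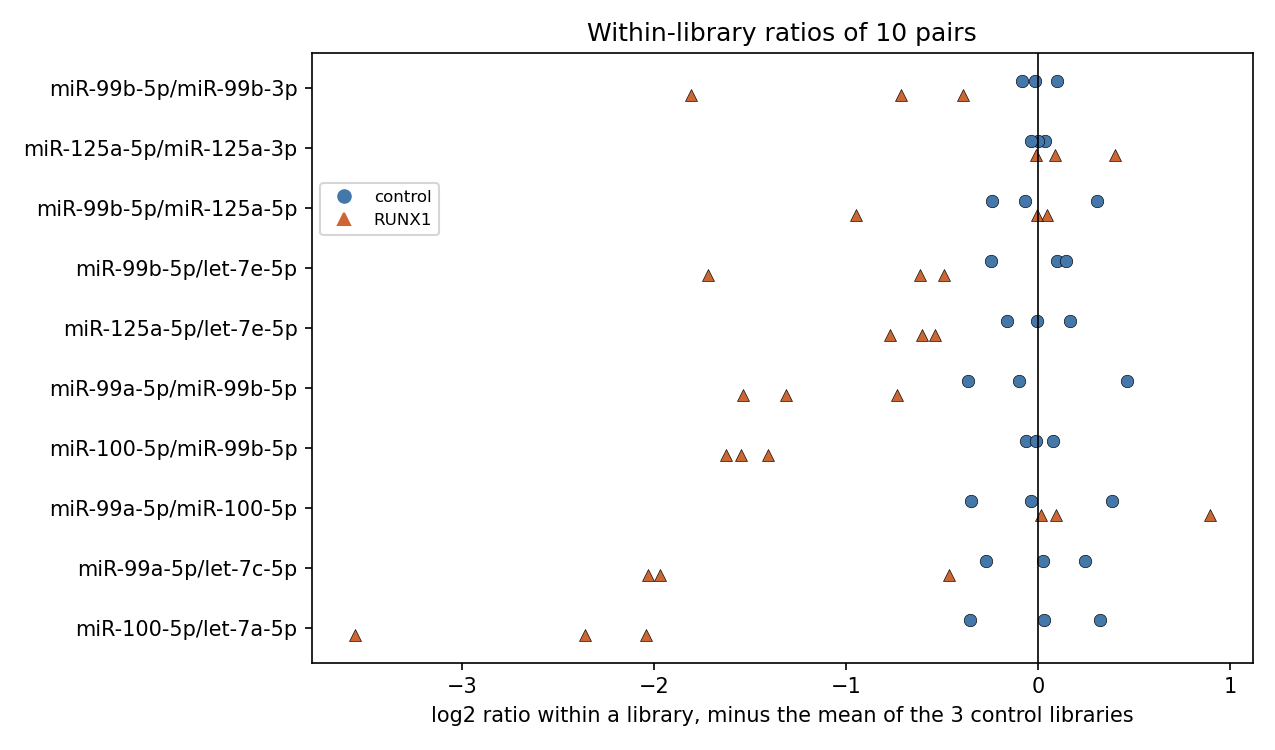
Log2 ratio of 10 pairs within each library, set to 0 at the mean of the 3 control libraries, with 1 point per library. The RUNX1 libraries lie left of all control libraries in 7 pairs, and RUNX1 replicate 3 is the leftmost point for miR-99b-5p to miR-99b-3p and to let-7e-5p.

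In the 2 spread loci, miR-99a-5p stood at 5.67, 6.59 and 4.61 times let-7c-5p in control and 4.03, 1.42 and 1.36 times in RUNX1 libraries, a log2 difference of -1.49 ± 0.534. miR-100-5p stood at 3, 3.92 and 4.78 times let-7a-5p in control and 0.928, 0.746 and 0.325 times in RUNX1 libraries, a log2 difference of -2.65 ± 0.501. Both let-7 entries had few counts, from 7 to 69 per library, and differ from each other by a single base, so the split of counts between them is uncertain. The let-7a-5p counts can come from any of its 3 loci, so the second ratio is not one within the chromosome 11 locus.

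For the most abundant member of each locus, the 3 other tested microRNAs with the most similar pattern were found by the Euclidean distance of mean-centred log2 CPM over the 6 libraries. For miR-99b-5p these were miR-3144-3p (distance 0.406), miR-501-3p (0.670) and miR-493-3p (0.693). For miR-99a-5p they were miR-4477b (0.495), miR-5189-3p (0.518) and miR-1226-3p (0.541). For miR-100-5p they were miR-502-3p (0.582), miR-4659a-3p (0.680) and miR-409-5p (0.744). The miR-125 entries of its locus and let-7a-2-3p did not pass the count filter, so they could not appear in this search. miR-501-3p fell from 990 to 499 CPM on average, miR-502-3p from 45.3 to 14.7 CPM and miR-1226-3p from 20.3 to 4.81 CPM. The others were lower, such as miR-3144-3p at 3.08 CPM in control and 2.19 CPM in RUNX1 libraries and miR-5189-3p at 3.59 and 0.639 CPM. How far counting noise shaped these distances was not tested. miR-501-3p and miR-493-3p had larger log2 fold changes (-0.99 and -0.95) than miR-99b-5p (-0.46).

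The promoter windows that RefSeq lists under the names of the host genes were searched on both strands for the RUNX core motifs TGTGGT and TGCGGT. Either motif occurred in 19.6% of all 35116 windows, TGTGGT in 13.1% and TGCGGT in 7.29%. MIR99AHG held neither in 6 windows, MIR100HG held TGTGGT in 1 of 6, and the single window of SPACA6 held both. The MIR100HG window with the match (chr11:122102180-122102479) and the SPACA6 window (chr19:51693080-51693379) lie inside the host genes as GENCODE annotates them, not at their outer starts, and the SPACA6 window covers MIR125A. In the direction of transcription, the first lies downstream of MIR100 and MIRLET7A2 and the second downstream of MIR99B and MIRLET7E. Transcripts that start in these windows would therefore not contain those hairpins. MIR125B1 lies downstream of the first window, so a transcript that starts there could contain it. These are matches of letters in short windows and no binding was measured here.

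**Figure D4:**
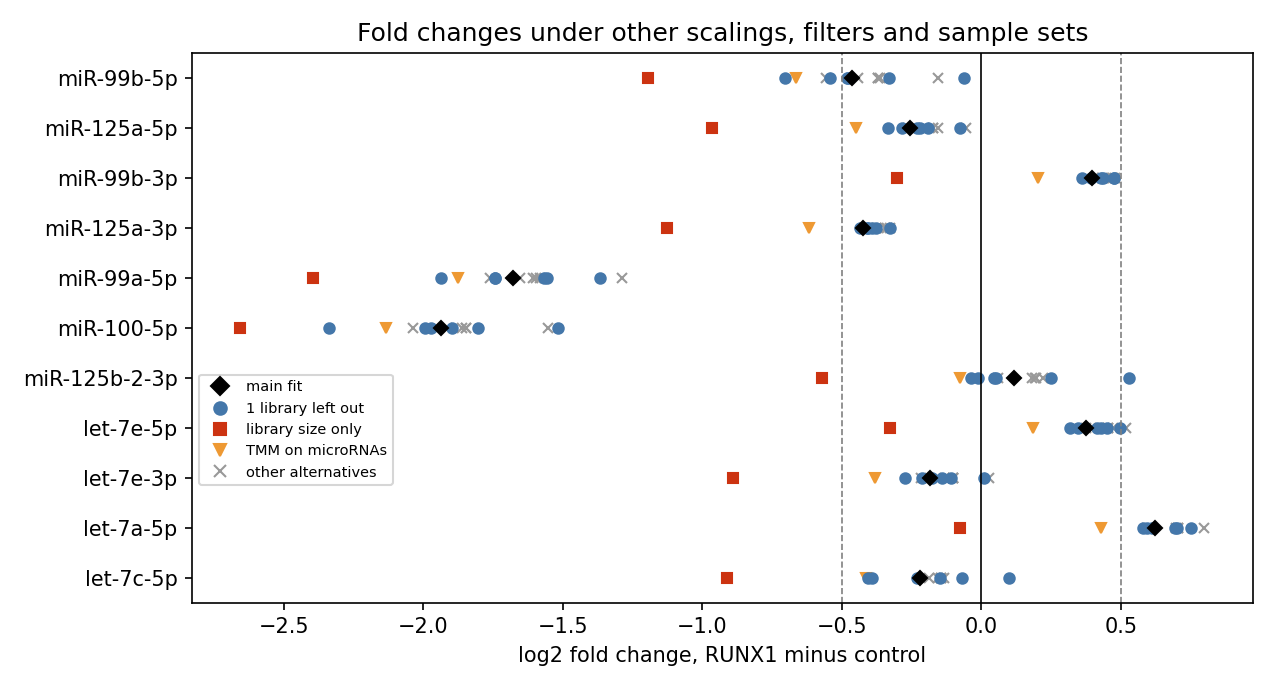
Log2 fold change (RUNX1 minus control) of the 7 tested members and 4 let-7 entries in the fit reported and under other scalings, filters and sample sets, with dashed lines at the fold limits. miR-99a-5p and miR-100-5p stay beyond the lower limit in all fits plotted, which leave out those on summed entries, and library size scaling shifts all entries to lower values and turns miR-99b-3p, miR-125b-2-3p, let-7e-5p and let-7a-5p below 0, as microRNA scaling does for miR-125b-2-3p (-0.076).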

How the data were processed

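The deposited counts are whole-number read counts per small RNA that the authors made without normalization, with CASAVA 1.8.2 and hg19 named in the submitters' processing notes. The aligner and the treatment of reads matching several loci are not given in the sources used here. The 5 summary rows held 0 counts and were left out. Counts were analysed in R 4.3.3 with edgeR 4.0.16 (filterByExpr with minimum count 10 and minimum total 15, TMM, glmQLFit and glmQLFTest, condition as the only term, biological coefficient of variation 0.181). Standard errors were taken from the fold change and its F statistic. DESeq2 1.42.0, other scalings and filters, a replicate block and left-out libraries were alternatives. Ratios used a pseudocount of 0.5. Scripts were tested on simulated data. Named were all 10 members, the let-7 entries of the 3 loci, entries sharing a 5p seed and 3 nearest microRNAs per locus. The members and lists were chosen with earlier results of these data known. Replicates were numbered by the sample titles, although 1 library name (RUNX1 replicate 1) holds the number 2.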

Additional observations from a re-analysis of the deposited data

How the results depend on the processing

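The number of members called altered, 2 and both lower, did not change with RLE factors, DESeq2, either count filter, the adjusted P-value with either fold limit (log2 of 0.5 or 1) or any 1 library left out (2 in each case), nor with RUNX1 replicate 3 and control replicate 1 left out together, which was chosen after seeing the data. It was 5 with library size only, where 67.7% of all small RNAs were called and 55% called lower, and miR-99b-5p (-1.19), miR-125a-5p (-0.97) and miR-125a-3p (-1.13) were also called, and 4 with TMM on microRNAs, where 58.9% were called and 36.4% called lower, and miR-99b-5p (-0.66) and miR-125a-3p (-0.62) were also called, while let-7a-5p (0.43) was not. Relative to the shift of the median of all small RNAs under library size only, these 3 were at -0.50, -0.27 and -0.43. The number was 1 when miR-99a-5p and miR-100-5p were summed, since they then made 1 entry, and 0 when all entries of 1 seed were summed. With the replicate block it was 2, and the block changed the call of no member. Same-numbered samples did not deviate together (r = -0.028, -0.083 and 0.024). Differently numbered samples had r from -0.032 to 0.082, the highest for control replicate 1 with RUNX1 replicate 2. With so few replicates, these values cannot decide whether the transductions were paired. The values that changed sign were miR-99b-3p (-0.30), miR-125b-2-3p (-0.57), let-7a-5p (-0.078) and let-7e-5p (-0.33) with library size only, and miR-125b-2-3p (-0.076) with TMM on microRNAs. miR-125b-2-3p ranged from -0.039 to 0.53, let-7c-5p from -0.41 to 0.10 and let-7e-3p from -0.27 to 0.0076 when 1 library was left out. These went to -0.011 without RUNX1 replicate 2 and -0.039 without RUNX1 replicate 3 for miR-125b-2-3p, 0.10 without RUNX1 replicate 1 for let-7c-5p, and 0.0076 without RUNX1 replicate 3 for let-7e-3p, which was 0.028 without control replicate 1 in addition. The log2 difference of miR-99b-5p to miR-125a-5p ranged from -0.48 to 0.020. Apart from the shift of the median under library size only, the causes were not tested. Without the count filter, the 3 untested members had log2 fold changes with standard errors of 1.32 to 2.17, and none was called. The counts of miR-125b-5p, miR-125b-1-3p and miR-99a-3p were at or near the floor, and differences in them were not detectable.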
